A study of Homo sapiens with 10 samples.

Results

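The introns described here were listed in both libraries of A549 cells treated with 25 μg/mL DRB, were listed in neither DMSO library, and match no intron of GENCODE release 44 in GRCh37 coordinates. There were 3392 such introns (called members) among the 126404 introns listed in any library. A549 is a human lung adenocarcinoma line. DRB is a nucleoside analogue that inhibits the kinases needed for RNA polymerase II to enter productive elongation, and α-amanitin is a fungal peptide whose target is the polymerase itself. The series holds 5 conditions with 2 libraries of poly(A)+ RNA each, namely DMSO, DRB at 10 and 25 μg/mL, and α-amanitin at 1 and 2 μg/mL for 24 h. The durations of the DRB and DMSO treatments are not given in the sources used here. The study's methods speak of bioreplicates for RNA-seq in general, but no source used here ties these libraries to separate cultures, so p-values measure only the spread between these libraries, which may be technical.

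Each intron begins at a donor (5′ splice site) and ends at an acceptor (3′ splice site). The spliceosome recognises most donors by a GT at the first intron bases and most acceptors by an AG at the last, which follows a pyrimidine-rich stretch. A transcript can gain an unannotated intron by joining known sites in a new order, as in exon skipping, by using a cryptic donor or acceptor, or by running past the usual end of its gene and joining a site beyond it. A read that spans a junction (a split read) counts the intron whose removal made that junction. All positions are in GRCh37. The start and end given for an intron are the last and first bases of its flanking exons.

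The junction sequences below show what the splicing machinery met at the new sites of the most read members of several classes. Each is written 5′ to 3′ on the strand of the gene, as 10 exon and 10 intron bases for a donor, and as 20 intron and 10 exon bases for an acceptor. Capitals mark the terminal bases of the intron.
CD59 new donor, chr11:33742188-33742207, minus strand: cgtgtcccagGTtccagcga
TRIO new donor in an exon, chr5:14489072-14489091, plus strand: ggttgctgtgGTgggttttc
CAV1 new donor upstream of the gene, chr7:116146181-116146200, plus strand: tggaccccagGTctggagat
SLC7A5 new acceptor, chr16:87877416-87877445, minus strand: gtcatggtcttcttgcacAGggcctcagcc
EGFR new acceptor, chr7:55087356-55087385, plus strand: ccctcactttccccgcccAGctgcgcagga
RPS14 new acceptor downstream of the gene, chr5:149811035-149811064, minus strand: ggtttccctatgttacctAGgctggtctcg
BCL10 new acceptor, chr1:85732378-85732407, minus strand: tttttgtattatttttgtAGagacggtgtt
RPL13A annotated donor joined to an annotated acceptor, chr19:49993170-49993189, plus strand: gtactgctggGTaagtcgct

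The values that chose the members were the split reads at 25 μg/mL DRB and in DMSO, and these are given as a description without a test. Unannotated introns took 2.06% and 2.26% of the introns listed in the DMSO libraries. Their share was 3.34% and 3.19% with 10 μg/mL DRB, while 25 μg/mL gave 13.8% and 13.2%. The α-amanitin libraries had 2.62% and 2.98% at the low dose of 1 μg/mL, then 3.89% and 3.23% at the high dose. The libraries at 25 μg/mL DRB therefore stood above all 8 other libraries. These libraries also listed the fewest introns, 45513 and 60620, against 74739 to 90955 in the others, and their replicates differed most (chi-squared over introns, divided by its degrees of freedom, 3.98 against 1.91 to 2.43 elsewhere). The first of them held 2899344 split reads and the second 5175747, against 3945772 to 6498515 in the remaining libraries. Their replicate pair thus had the shallowest library of the series, and its part in the member count was not tested except by the alternatives given in the closing section. Of the 6 epithelial markers, KRT8, KRT18 and KRT7 were read in every library while EPCAM, CDH1 and KRT19 were at 0 in all. The summed epithelial level was 732 and 858 CPM (split reads scaled to a common library total) at 25 μg/mL DRB, against 1374 and 1368 in DMSO. The markers differed in this. KRT18 had 78.6 and 151 CPM against 514 and 596, and KRT7 299 and 277 against 495 and 408. KRT8 was not lower in both, at 354 and 430 against 365 and 364. All 5 leukocyte and 4 endothelial markers were at 0. Of 5 fibroblast markers only COL1A1 was read, at 24.1 and 0 on the same scale with 25 μg/mL DRB, against 158 and 12.4 in DMSO. The 5 NRF2-driven genes known to be high in A549 summed to 5670 and 5151 with 25 μg/mL DRB, against 5317 and 4769 in DMSO. The part of these levels in the member count was not tested.

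**Figure D1:**
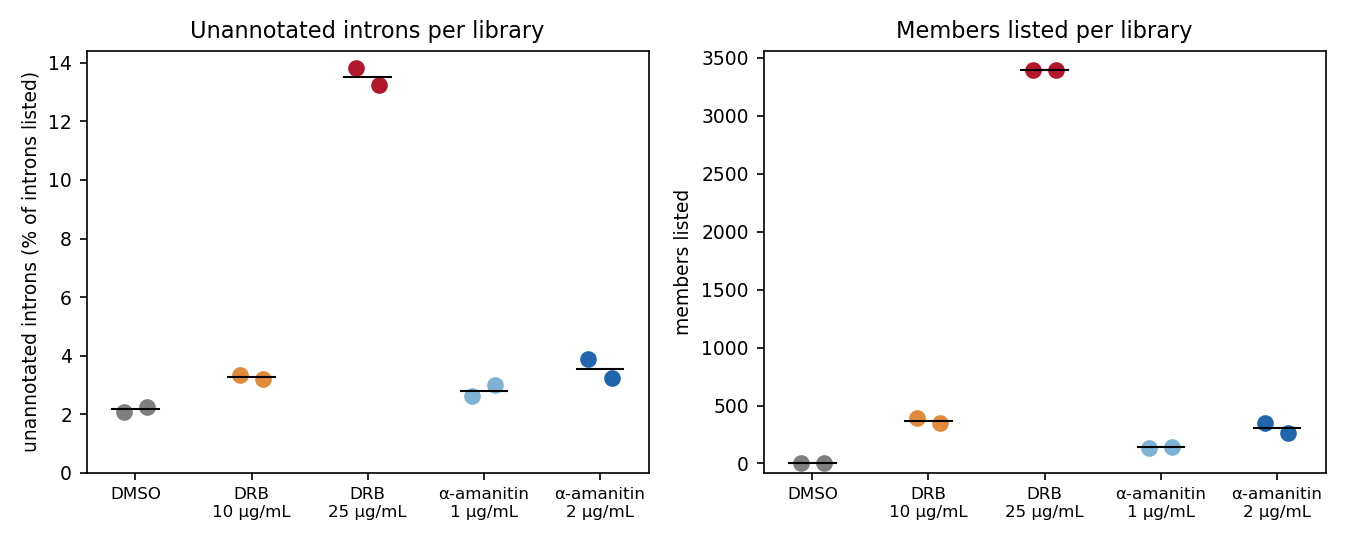
Share of listed introns that match no GENCODE intron (left, %) and number of the 3392 members listed (right) in each of the 10 libraries, with points for libraries and a line at the mean of each condition. The 25 μg/mL DRB libraries sit at 13.8% and 13.2%, above the other libraries, which lie between 2.06% and 3.89%; members are at 0 in DMSO and at 3392 in 25 μg/mL DRB by the rule.

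The deposited tables list an intron only from 3 split reads, and only where at least 1 of its sites holds at least 11 split and unspliced reads together. By these minima, an intron missing from a DMSO library may have had up to 2 split reads there, or up to 10 where neither site was otherwise used. Of 3392 members, 2114 (62.3%) used an annotated site that had at least 11 split reads in both DMSO libraries. By the minima such a member had at most 2 reads in each. The authors also filtered split reads by offset entropy, which could have removed a junction with more reads. Every limit given for DMSO below therefore rests on the minima alone, and the effect of that filter was not tested. Among all introns listed in both 25 μg/mL DRB libraries, 15.6% were missing from both DMSO libraries. The share was 87% for the 3899 unannotated introns and 8.02% for the annotated ones. Both shares come from the contrast that made the rule, and nothing is read from them.

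Members were mostly shallow. They had a median of 6 reads in the first and 7 in the second 25 μg/mL DRB library, with highest values of 205 and 244, and together took 11043 and 7000 CPM. Of the members, 634 had at least 11 reads in both libraries, and 145 stood at the edge of the rule with 3 reads in both. Just outside the rule lay 198 unannotated introns listed in both 25 μg/mL DRB libraries and in 1 DMSO library, 71 of them at 3 reads there, and 6064 listed in 1 library of 25 μg/mL DRB and in no DMSO library. Without the first 25 μg/mL DRB library the rule would take 7162 introns, and without the second 5686. With a minimum scaled to the depth of each library it would take 2236.

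Joins of annotated sites of 1 gene, mostly exon skips, were the most frequent class. Both sites were annotated in 1292 members (38.1%), of which 1236 joined sites of 1 gene and 56 joined sites of different genes. A new acceptor was joined to an annotated donor in 756 members, a new donor to an annotated acceptor in 598, and both sites were new in 746. Members with exactly 1 annotated site thus made up 39.9%, the largest share by number of annotated sites. Of the 777 unannotated introns listed in both DMSO libraries, 23.3% had both sites annotated, 42.7% had 1, and 34.0% had none. The members leaned towards skipping, and the DMSO set towards introns without an annotated site.

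**Figure D2:**
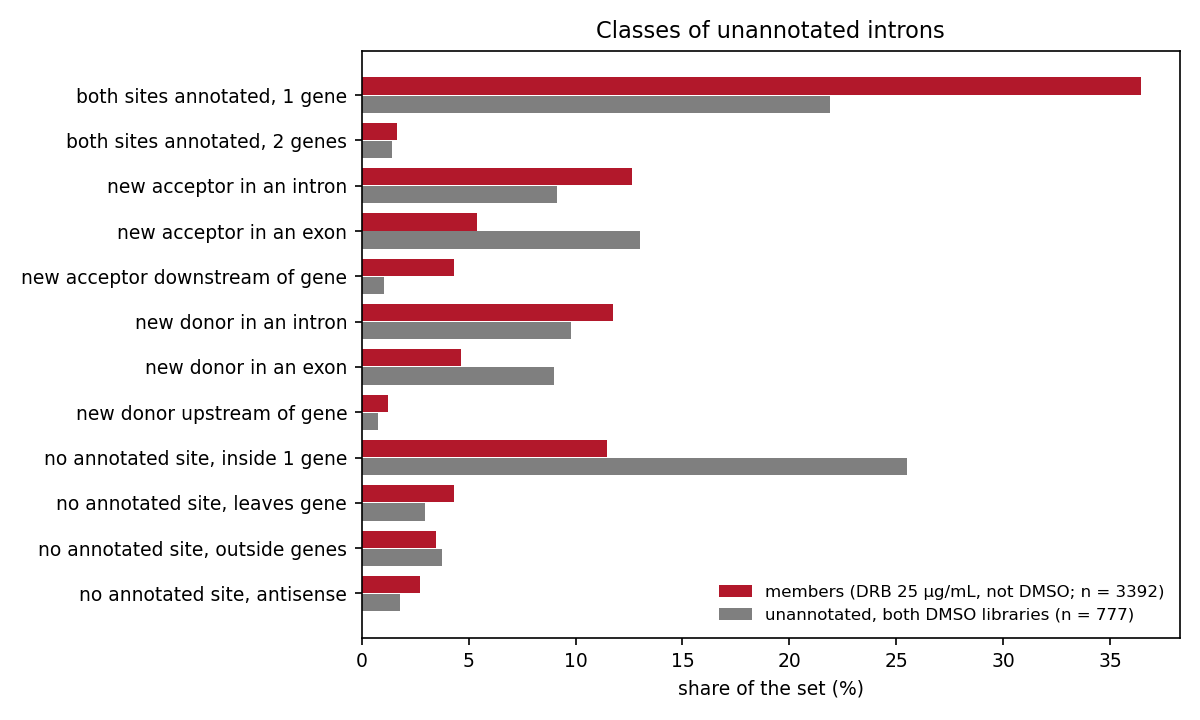
Share (%) of members (upper bars, n = 3392) and of unannotated introns listed in both DMSO libraries (lower bars, n = 777) in each class of splice site annotation. Joins of annotated sites of 1 gene make up 36.4% of members and 21.9% of the DMSO set, and introns with no annotated site inside 1 gene 11.5% and 25.5%.

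Among the 1236 members that joined annotated sites of 1 gene, 920 (74.4%) left out 1 exon, 167 left out 2, 68 left out 3 and 24 left out 4. At most 9 exons were left out, and for 36 no GENCODE transcript holds both sites. RPL13A, a protein of the large ribosomal subunit, carried the most read skip (chr19:49993179-49993732, plus strand, 552 nt). It had 153 and 244 split reads at 25 μg/mL DRB, 16 and 10 with 10 μg/mL, 0 and 5 with 1 μg/mL α-amanitin and 3 and 3 at 2 μg/mL. It was picked by its reads at 25 μg/mL DRB, so the higher values there are a description. The skip was a small share of a heavily used site, 11.4% and 7.44% of the reads at its donor, against at most 0.116% in DMSO.

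In other genes the skip was the main product of its site. UBE2J2, an ubiquitin-conjugating enzyme of the endoplasmic reticulum, had a skip of 1504 nt (chr1:1190867-1192372, minus strand) with 43 and 97 reads at 25 μg/mL DRB. It took 100% and 95.1% of the reads at its donor, against at most 3.67% in DMSO, where the donor held 47 and 58 reads. YTHDF2, a reader of N6-methyladenosine in mRNA, had a skip of 30590 nt (chr1:29064850-29095441, plus strand) with 79 and 103 reads and 78.2% and 62.0% of its donor. The YTHDF2 skip was also listed in all 6 libraries the rule did not use, at 46 and 42 reads with 10 μg/mL DRB, 4 and 8 with 1 μg/mL α-amanitin and 21 and 11 at 2 μg/mL.

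STAT3, a transcription factor downstream of cytokine receptors, had a skip at chr17:40489875-40491332 (minus strand) with 78 and 89 reads. This was 68.4% and 63.1% of the reads at the donor, against at most 1.92% in DMSO. GCLM, the modifier subunit of the enzyme that begins glutathione synthesis, had 69 and 77 reads over a skip at chr1:94360284-94363395 (minus strand), 79.3% and 62.6% of its donor. FOSL1, a subunit of AP-1, gave 73 and 112 reads at chr11:65661592-65667712 (minus strand), but only 7.25% and 8.02% of a donor that held 1007 and 1396 reads, against 36 and 60 in DMSO. RTN4 with 80 and 90 reads, RAB5C with 80 and 67, PXN with 52 and 84 and RPS18, where 2 exons were left out, with 61 and 94 complete the skips among the 25 most read members outside shared sequences. Among the skips named here the share of the donor thus ran from under 1% in RPS18 to 100% in 1 library of UBE2J2.

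New acceptors lay mostly in introns. Of 756, 428 fell in an annotated intron, 182 in an annotated exon and 146 downstream of the gene. Of 598 new donors, 398 fell in an intron, 158 in an exon and 42 upstream of the gene. The new sites were far from the sites they replaced. The distance to the nearest annotated acceptor joined to the same donor had a median of 2029.5 nt in members, against 44.5 nt in the DMSO set, and 8.99% against 55.0% lay within 100 nt. For donors the medians were 1593 nt in members and 123.5 nt in the DMSO set. Small shifts of a known site were thus a lower share of the members than of the DMSO set. This difference was not tested.

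The most read member of all was a new donor in CD59, a cell surface inhibitor of the complement membrane attack complex (chr11:33739017-33742198, minus strand, 3180 nt). It had 205 and 206 reads at 25 μg/mL DRB, 36 and 16 with 10 μg/mL, none listed with 1 μg/mL α-amanitin and 23 and 8 at 2 μg/mL. The 25 μg/mL values were the highest, but this member was picked for its reads there, so this is a description. The donor, printed above, is in an annotated intron and took 23.1% and 13.9% of the reads at the acceptor, against at most 0.394% in DMSO.

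EGFR, the receptor of epidermal growth factor, joined its annotated donor to a new acceptor 317 nt further on, in the following intron (chr7:55087058-55087376, plus strand). It had 60 and 123 reads at 25 μg/mL DRB and was listed in no other library. Of the 60 and 135 split reads at this donor, the new acceptor took 100% and 91.1%, against at most 5.26% in DMSO, where the donor held 37 and 35 reads. DNTTIP2 used a new donor at chr1:94343418-94343735 (minus strand) with 74 and 57 reads, 88.1% and 72.2% of its acceptor, again in no other library. In EGFR and DNTTIP2 the new junction held from 72.2% to 100% of the reads at the shared site.

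CDKN1A, the p53-induced inhibitor of cyclin-dependent kinases, had a new acceptor at chr6:36646716-36647998 (plus strand) with 42 and 95 reads at 25 μg/mL DRB and 0 and 3 with 10 μg/mL. Its donor held 91 and 222 reads at 25 μg/mL and was at 0 in DMSO, so no limit from DMSO can be given for its use. AEN, a p53-induced exonuclease, had an acceptor shifted by only 3 nt (chr15:89172657-89173286, plus strand) with 29 and 23 reads. Its use, 9.76% and 6.55% of the donor, was about the DMSO limit of 9.52%, so no difference in use was detectable at this depth.

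Over all members with exactly 1 annotated site, the new junction took a median of 16.7% of the split reads at that site, with quartiles of 6.04% and 35.7% and medians of 17.6% and 15.0% in the separate libraries. Over sites with at least 20 reads in both libraries the median was 9.66%. In 197 of 1354 the new junction took more than 50% of its site. Taken over donors and acceptors with at least 11 reads in both DMSO libraries, the use of a member was higher in both 25 μg/mL DRB libraries than in both DMSO libraries at 2653 of 3067 sites (86.5%), with unlisted values set at 2 reads. Over all introns listed in both 25 μg/mL DRB libraries this was so at 9.12% of 68131 sites. The rule used this contrast.

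**Figure D3:**
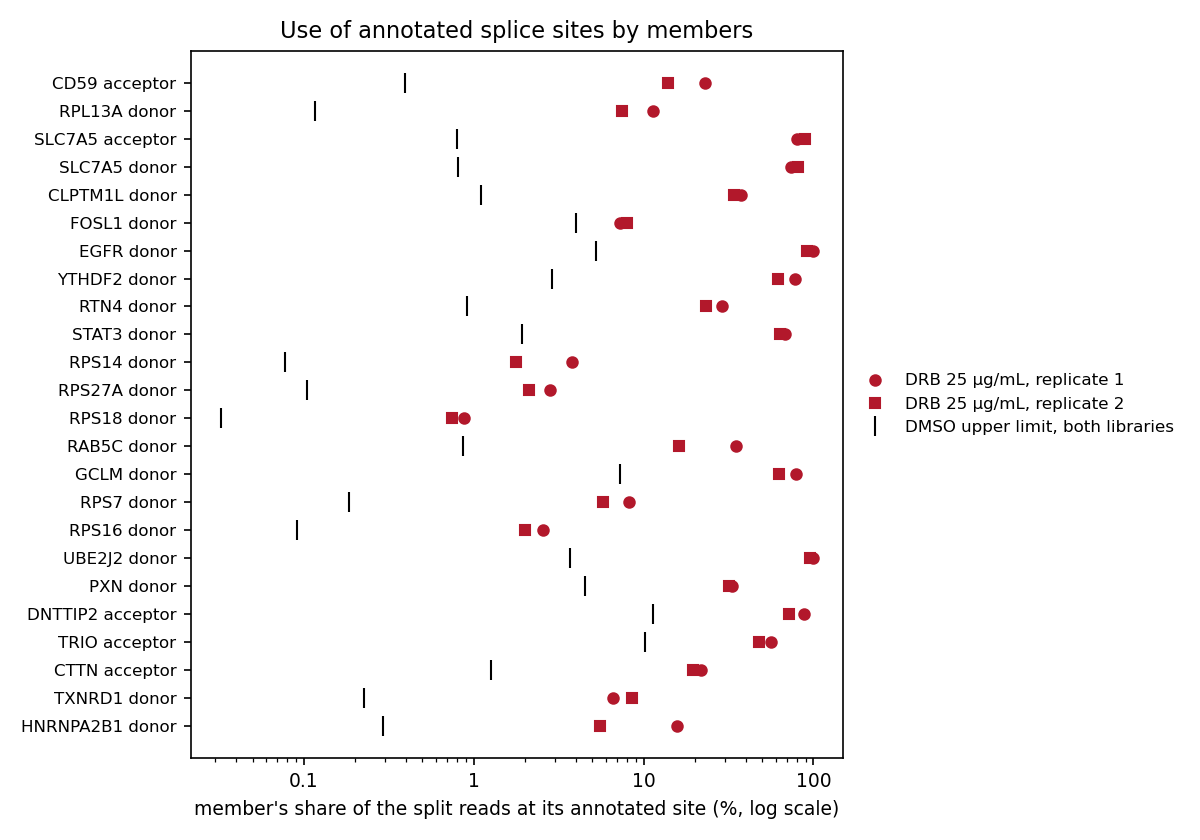
Share of the split reads at an annotated donor or acceptor that went to the member (%, log axis) in the 25 μg/mL DRB libraries (circles replicate 1, squares replicate 2) and the highest share that unlisted reads could make in the pooled DMSO libraries (bars), for described members ranked within the first 60 by split reads whose site had at least 11 reads in both DMSO libraries. The points run from 0.744% in RPS18 to 100% in EGFR and UBE2J2. Each lies to the right of its limit, which rests on the listing minima alone.

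Some members came as neighbours that together bound a new exon. Counting introns whose acceptor and next donor lay 20 to 500 nt apart, 325 new exons were bounded by 634 members (18.7%). Their median length was 157 nt, and 29.8% had a length divisible by 3. In 140 of them, in 105 genes, the outer sites were both annotated, as for a cassette exon. The most read was in SLC7A5, the light chain of a large neutral amino acid transporter, with 177 nt at chr16:87877249-87877425 (minus strand). The intron into it had 77 and 144 reads at 25 μg/mL DRB, 20 and 18 with 10 μg/mL, 5 and 6 with 1 μg/mL α-amanitin and 11 and 10 at 2 μg/mL. The intron out of it had 94 and 192, 33 and 51, 15 and 10, and 31 and 31 reads in the same order of conditions. All 8 treated libraries thus held both junctions. At 25 μg/mL DRB, whose reads chose the exon, they took 74.0% and 80.9% of the donor before it. Of the acceptor after it they took 79.7% and 89.3%.

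CTTN, an actin-binding protein of the cell cortex, had a new exon of 139 nt (chr11:70259971-70260109, plus strand) with 37 and 47 reads into it and 49 and 67 out of it. The CTTN junctions were also read in other conditions, with 9 and 3 reads into and 15 and 10 out of the exon with 10 μg/mL DRB, and 15 and 4 into and 18 and 8 out of it with 2 μg/mL α-amanitin. With 1 μg/mL α-amanitin the junction out of the exon had 7 reads in 1 library. CLPTM1L had one of 236 nt (chr5:1319108-1319343, minus strand), with 92 and 108 reads into it and 60 and 78 out of it to a further new acceptor. RPS16 had one of 123 nt with both ends inside annotated exons (chr19:39925649-39925771, minus strand), with 51 and 91 reads into it and 43 and 38 out of it. The RPS16 exon remained a small product, at 2.55% and 2.02% of the donor.

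A new acceptor could also lie beyond the gene. The member then left the gene. Members that left a gene or lay outside genes numbered 509 (15.0%), against 9.91% of the DMSO set. Of these, 118 members and 29 of the 77 introns in the DMSO set had both sites outside genes and left none. RPS14, a protein of the small ribosomal subunit, was joined to an acceptor 11154 nt past its annotated end (chr5:149811044-149825172, minus strand). This junction had 87 and 76 reads at 25 μg/mL DRB and 11 and 8 with 10 μg/mL, and none were listed with α-amanitin. RPS7, of the same subunit, was joined to an acceptor 11809 nt past its end (chr2:3627850-3640319, plus strand) with 67 and 77 reads, and the exon of 114 nt that begins there went on to a second new intron with 38 and 80 reads. Both were small products of their donor, 3.80% and 1.77% in RPS14 and 8.17% and 5.76% in RPS7. The RPS7 junction has the same 40 nt around it as 2 other listed introns, so its reads may belong to any of these.

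In SRSF3 and MCL1 the join past the end took a larger part of its donor. SRSF3, an SR splicing factor, was joined to an acceptor 33507 nt past its end (chr6:36569571-36606884, plus strand) with 13 and 20 reads, 65.0% and 41.7% of the donor, against at most 0.370% in DMSO. The SRSF3 donor held 20 and 48 reads at 25 μg/mL DRB, against 461 and 615 in DMSO. MCL1, a short-lived inhibitor of apoptosis, was joined to an acceptor 1773 nt past its end (chr1:150531598-150546135, minus strand) with 40 and 41 reads, 64.5% and 53.2% of a donor that was at 0 in DMSO. The annotated lncRNA that follows MCL1 on the same strand, ADAMTSL4-AS2, held 15 members with 160 and 197 reads in all at 25 μg/mL DRB, and at its annotated introns 96 and 199 reads, against 0 and 0 in DMSO. HNRNPA3, which binds RNA, was joined to an acceptor 39453 nt past its end (chr2:178084042-178128140, plus strand) with 25 and 24 reads, 15.3% and 6.86% of its donor.

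The 56 joins of annotated sites of different genes were shallow, with at most 36 reads over both libraries. The highest joined RPL27 to IFI35 (chr17:41154800-41164196, plus strand) with 16 and 20 reads, where it took 1.19% and 1.01% of the RPL27 donor but 72.7% and 62.5% of the IFI35 acceptor. DDX5, an RNA helicase, was joined to POLG2 with 11 and 24 reads, and PFDN2 to NECTIN4 with 18 and 15. ARPC2 was joined to GPBAR1 with 13 and 15 reads and CHCHD2 to PHKG1 with 17 and 11. The acceptors in POLG2, NECTIN4, GPBAR1 and PHKG1 were at 0 in both DMSO libraries. The acceptor thus received most of its listed reads from the neighbouring gene in RPL27-IFI35, PFDN2-NECTIN4, ARPC2-GPBAR1 and CHCHD2-PHKG1, but not in DDX5-POLG2, at 34.4% and 47.1%. The converse, a donor upstream of a gene, was highest in CAV1, the main coat protein of caveolae, where a donor inside CAV2 was joined over 20388 nt to an annotated CAV1 acceptor with 35 and 51 reads (chr7:116146190-116166579, plus strand) and in no other library.

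Of the 746 members without an annotated site, 389 lay inside 1 gene, 147 reached out of a gene, 118 lay outside genes and 92 were antisense to a gene. Of the 389, 256 (65.8%) lay wholly within an annotated exon, with a median length of 292.5 nt, 136 of them without any coding base and 79 wholly coding. In the DMSO set 146 of 198 lay within an exon, but 31.5% of these were GT-AG introns, against 87.5% in members. BCL10, an adaptor of NF-κB signalling, had the most read of them (chr1:85732387-85733357, minus strand, 969 nt of which 44 coding), with 108 and 123 reads. LIF, a cytokine of the interleukin 6 family, had an intron of 2379 nt (chr22:30637349-30639729, minus strand), 86 nt of it coding, with 64 and 85 reads. Both were listed at 25 μg/mL DRB alone. CLP1, a factor of mRNA 3′ end formation, had one of 309 nt (chr11:57428534-57428844, plus strand) with 14 and 22 reads.

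The highest member outside genes spanned 3307 nt at chr9:21699608-21702916 (minus strand). It had 104 and 116 reads at 25 μg/mL DRB, 15 and 19 with 10 μg/mL, 0 and 13 with 1 μg/mL α-amanitin and 0 and 11 at 2 μg/mL. The 25 μg/mL values chose this member, so only 10 μg/mL DRB was compared with α-amanitin. That test, described below, gave a log2 fold change of 2.91 ± 1.21 (SE, adjusted p = 0.163, limma voom).

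**Figure D4:**
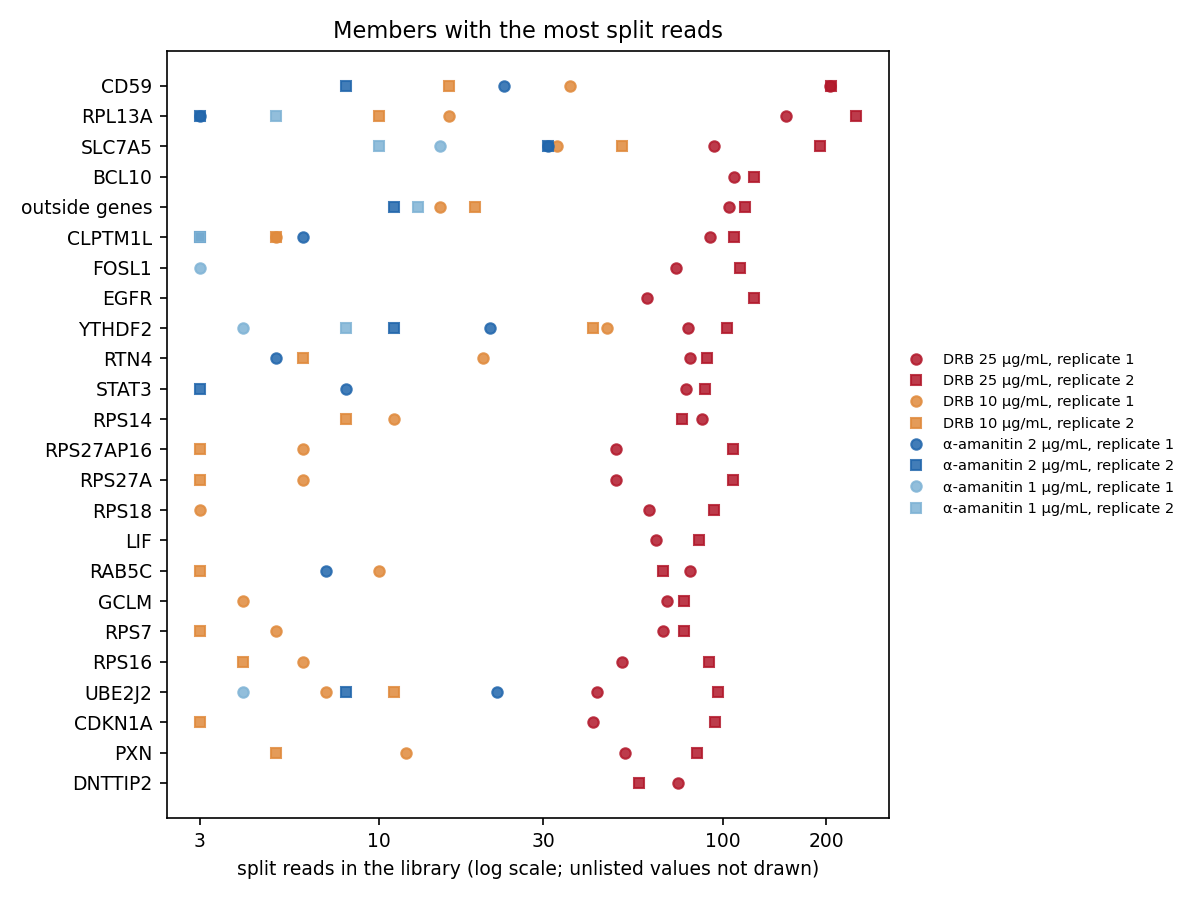
Split reads (log axis) in each library for described members among the 25 with the most reads at 25 μg/mL DRB, at most 1 per gene, with circles for replicate 1 and squares for replicate 2, and unlisted values left out. The 25 μg/mL DRB points lie between 42 (CDKN1A) and 244 (RPL13A), and the highest value of any other condition is 51 (SLC7A5).

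Members were long. Their median length was 3104.5 nt (range 22 to 383781), against 1834 nt for the 2966 annotated introns that met the same rule, 1418 nt for the DMSO set and 1082 nt for annotated introns listed in all 10 libraries. Over 20000 nt lay 11.9% of members, 7.28% of the annotated introns under the same rule and 2.80% of those in all libraries. The skips had a median of 4606.5 nt and the new acceptors downstream of genes 18370 nt, while introns without annotated sites inside 1 gene had 383 nt. A skip spans more than 1 annotated intron, so the longer median of the members is in part set by their classes.

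**Figure D5:**
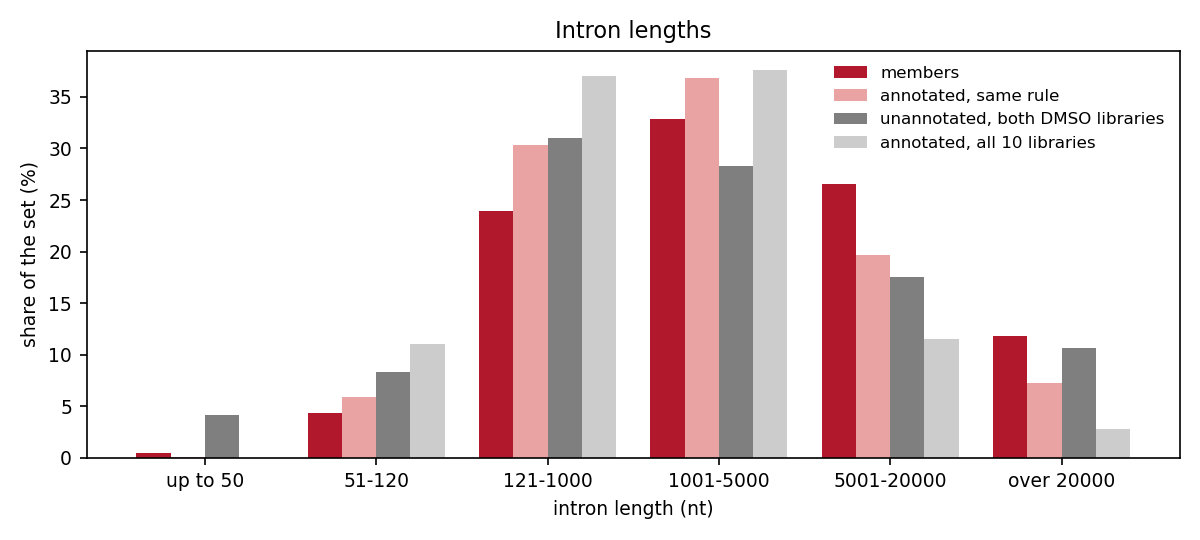
Share (%) of introns by length (nt) in members, annotated introns under the same rule, unannotated introns listed in both DMSO libraries and annotated introns listed in all 10 libraries. Members have 26.5% of introns over 5000 and up to 20000 nt, against 19.7%, 17.5% and 11.5% in the other sets.

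Of the members, 3220 (94.9%) were GT-AG introns and 79 GC-AG, against 98.2% GT-AG in annotated introns under the same rule and 76.1% in the DMSO set. The authors' filter selected on these bases and on annotation, so the shares are partly set by it. On a log2 odds score of the bases around the site, built from annotated introns, the new donors had a median of 6.12 against 8.48 for the members' annotated donors. The new acceptors had 7.68 against 9.92. New donors of the DMSO set scored 7.21 and its new acceptors 6.50. The new sites thus scored lower than annotated ones, with wide overlap, the quartiles of new acceptors being 4.79 and 10.03. The score was built from annotated introns, so this difference is in part set by the scale.

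Some new acceptors resemble the antisense strand of Alu elements, primate repeats known to supply cryptic acceptors. The 3 most frequent runs of 12 letters from the AG of the members' new acceptors were therefore searched for exactly, in windows of 30 nt at each acceptor. AGATGGAGTCTC was found at 25 of 1329 new acceptors of members (1.88%), at 0 of 406 of the DMSO set, at 5 of 2839 annotated acceptors under the same rule (0.176%) and at 30 of 99833 annotated acceptors in all (0.0301%). AGGCTGGAGTGC was found at 23 in members (1.73%), at 2 in the DMSO set (0.493%), at 7 annotated acceptors under the same rule (0.247%) and at 58 in all (0.0581%). AGATGGAGTTTC was found at 10, 0, 1 and 14 in the same order. The reverse complements were at 0 in the members. The letters were taken from the members themselves, so the higher share is in part set by the choice, and no difference was tested.

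The members were spread over 1473 genes. There was 1 member in 813 of them, at least 5 in 132 and at least 10 in 24. Protein-coding genes held 2958 members (87.2%), lncRNA genes 175, and 210 had no gene on their strand. TRIO, a guanine nucleotide exchange factor with a gene of 388787 nt, had 32, of which 15 used a new acceptor, 9 a new donor and 7 skipped exons. TXNRD1, the cytosolic thioredoxin reductase, had 23, CMIP 22, PFKP 21 and SMURF2 18. The members of TRIO held 578 and 542 reads at 25 μg/mL DRB and 15 and 0 with 10 μg/mL, beside 2882 and 3202 reads on its annotated introns at 25 μg/mL, against 1115 and 1198 in DMSO.

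Genes that held members were well covered at 25 μg/mL DRB. Of 9841 genes compared, 1324 held members, with a median of 82.7 CPM at 25 μg/mL DRB, against 6.28 over all genes compared, and 90.4 against 27.1 in DMSO. The median log2 ratio of 25 μg/mL DRB over DMSO was 0.14 in these genes and -1.18 over all. The gene must be read at 25 μg/mL DRB for a member to be listed, so the level and the listing cannot be told apart. Fewer transcripts per cell and fewer cells cannot be told apart in these bulk libraries either.

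By gene list, members were found in 15 of 25 hnRNP proteins compared, which bind nascent RNA, against 13.5% over all genes compared. They were found in 12 of 27 NRF2 targets and in 36 of 82 cytosolic ribosomal proteins. The 56 members in ribosomal protein genes had 2415 reads, and 18 of them left the gene. Members were found in 10 of 29 p53 targets, 6 of 17 SR splicing factors, 15 of 47 core spliceosome and splice site factors, 9 of 38 genes of RNA polymerase II, pause release and elongation and 4 of 20 cleavage and polyadenylation factors. They were also found in 9 of 23 immediate early and short-lived transcripts, 3 of 22 genes of the integrated stress and unfolded protein responses, and 3 of 27 snoRNA host genes. These lists differ in how deeply their genes are read, which was not adjusted for.

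Within these lists the use of the new junction varied. U2AF1, the small subunit of the factor that recognises the acceptor AG, had a skip with 31 and 26 reads, 47.7% and 31.0% of its donor, against at most 0.870% in DMSO. SNRPG, an Sm protein, had a new acceptor with 18 and 27 reads, 66.7% and 61.4% of its donor. CSTF3, a subunit of the cleavage stimulation factor, left out 2 exons in 25 and 21 reads, 83.3% and 46.7% of its donor. In HNRNPA2B1, by contrast, the skip with 70 and 36 reads held 15.7% and 5.54%. TRA2B, an SR-like splicing regulator, had a skip with 28 and 11 reads, 36.8% and 9.82%, so its replicates differed more than 3-fold. SUPT5H, a subunit of the pausing factor DSIF, had a skip with 9 and 15 reads, at 7.03% and 5.17% of its donor. Among the stress, NRF2 and snoRNA genes, HSP90B1 had a skip at 4.76% and 2.03% of its donor, TXNRD1 a new acceptor with 42 and 67 reads at 6.57% and 8.58%, NOP56 a skip at 27.5% and 17.3% and NCL one at 5.67% and 2.56%.

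The remaining 6 libraries were not used by the rule. Of the 3392 members, 2660 (78.4%) were listed in none of them. Both 10 μg/mL DRB libraries listed 230 (6.78%, 95% Wilson interval 5.98 to 7.68), and 505 were listed in at least 1. Any of the 4 α-amanitin libraries listed 522 (15.4%, interval 14.2 to 16.6), and all 4 listed 21. The intervals cover counting error only. The annotated introns under the same rule were listed more often, 27.7% in both 10 μg/mL DRB libraries and 57.6% in any α-amanitin library, and they had more reads, with a median of 27 over both 25 μg/mL DRB libraries against 13. Members with at least 10 reads in both 25 μg/mL libraries were listed in both 10 μg/mL DRB libraries in 13.8% of cases, and in any α-amanitin library in 24.1%. By library, 389 and 346 members were listed with 10 μg/mL DRB, 134 and 144 with 1 μg/mL α-amanitin, and 351 and 264 at 2 μg/mL.

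The members summed to 628 and 447 CPM with 10 μg/mL DRB, against 142 and 107 with 1 μg/mL and 400 and 245 at 2 μg/mL α-amanitin. Both 10 μg/mL DRB libraries were above all 4 α-amanitin libraries. By class, exons skipped within a gene were listed in any α-amanitin library in 19.3% of members and joins past the gene end in 10.3%. With 10 μg/mL DRB, at least 1 library listed 16.8% and 16.4% of these classes. Antisense members were listed in no α-amanitin library, and only 2 of the 92 in either 10 μg/mL DRB library. At 1 μg/mL α-amanitin, 2 of the 146 acceptors downstream of genes were listed.

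Members listed in all 4 α-amanitin libraries included YTHDF2 and SLC7A5 above and 3 more by the rule for named members. PFKP, the platelet phosphofructokinase, had a new acceptor with 25 and 30 reads at 25 μg/mL DRB, 8 and 6 with 10 μg/mL, 3 and 4 with 1 μg/mL α-amanitin and 13 and 7 at 2 μg/mL. CSNK1D, casein kinase 1 delta, had a new donor with 20 and 34 reads at 25 μg/mL DRB, 7 and 7 with 10 μg/mL, 5 and 7 with 1 μg/mL and 17 and 14 at 2 μg/mL α-amanitin. PSMB2, a proteasome subunit, had a skip with 27 and 16 reads at 25 μg/mL DRB and 4 to 14 in the other 6 libraries. In CSNK1D the 10 μg/mL DRB values lay below both values at 2 μg/mL α-amanitin.

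The rule did not use the 10 μg/mL DRB and α-amanitin libraries, and the comparison tested among these was 10 μg/mL DRB against the mean of the 2 α-amanitin doses (limma voom over all introns with at least 10 reads in 2 of the 6 libraries, Benjamini-Hochberg adjustment). Of 84574 introns tested, 9.04% passed an adjusted p of 0.05, 3909 higher and 3740 lower with 10 μg/mL DRB. Scaling by total reads in place of TMM (trimmed mean of M values) moved this split to 6712 higher and 2586 lower, and the median of all introns to 0.15 on the log2 scale, against 0.02. Only 48 of the 3392 members had enough reads, 14 of them through the 10 μg/mL DRB libraries alone. Of the 48, 2 were higher and 0 lower (all introns 4.62% higher), and at an unadjusted p of 0.05 the counts were 14 higher and 0 lower (all introns 14.7% higher and 12% lower). Members that passed the read filter through 10 μg/mL DRB alone had to be higher there, so nothing about the members follows from these counts. Unlisted introns entered as 0 reads, which overstates a difference where they had a few.

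Both members that passed were higher with 10 μg/mL DRB, and neither passed when the replicate number was a block (adjusted p = 0.0700 for SLC7A5 and 0.0717 for MATR3, limma voom). The intron out of the new SLC7A5 exon had a log2 fold change of 1.38 ± 0.32 (SE, adjusted p = 0.0345, limma voom), from 33 and 51 reads with 10 μg/mL DRB, against 15, 10, 31 and 31 with α-amanitin. It was 1.49 ± 0.60 (adjusted p = 0.199) without the first 1 μg/mL α-amanitin library, and 0.60 ± 0.22 (adjusted p = 0.169) against 2 μg/mL alone. Without the second 10 μg/mL DRB library its adjusted p was 0.0508, and without the second 1 μg/mL α-amanitin library 0.0914. The intron into the same SLC7A5 exon had 1.39 ± 0.66 (adjusted p = 0.220, limma voom) and did not pass. On its annotated introns the SLC7A5 gene was itself higher, by 0.46 ± 0.09 (adjusted p = 0.0118, limma voom). A skip in MATR3, which encodes an RNA-binding protein of the nuclear matrix, had 13 and 17 reads with 10 μg/mL DRB, against 0, 0, 0 and 3 with α-amanitin (chr5:138629264-138650364, plus strand). Its log2 fold change was 4.45 ± 1.12 (adjusted p = 0.0424, limma voom), a value that depends on how unlisted introns are set. It is 1 of the 14 that met the read filter through 10 μg/mL DRB alone, so this value is a description. GENCODE holds 2 overlapping MATR3 entries, and on annotated introns found only in the longer entry, which the skip belongs to, the log2 fold change was about as large, at 4.36 ± 0.98 (adjusted p = 0.0205). On those found only in the shorter entry it was -0.89 ± 0.40 (adjusted p = 0.139). With any single α-amanitin library left out its adjusted p lay between 0.105 and 0.225, and without either 10 μg/mL DRB library it had too few reads to be tested. The YTHDF2 skip had 2.38 ± 0.67 (adjusted p = 0.0592) and CD59 3.37 ± 1.44 (adjusted p = 0.175), with 36 and 16 reads against 0, 0, 23 and 8. No member passed without the first or without the second 1 μg/mL α-amanitin library.

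The same comparison of the genes that hold members (split reads on annotated introns, limma voom) called 518 of 1276, 354 higher and 164 lower, while over all 9590 genes 27.7% were called, 14.7% higher and 13% lower. The median log2 fold change was 0.16 in these genes and 0.01 over all. Without the first 10 μg/mL DRB library 174 were called, and without the second 208, against 748 and 827 of all genes. With total reads the split was 438 higher and 112 lower, and over all genes 1760 and 966. Genes holding members are read more deeply, and the part of depth in their share of calls was not tested.

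Among them EGFR was higher with 10 μg/mL DRB by a log2 fold change of 1.55 ± 0.15 (adjusted p = 0.00197) and GCLM by 1.38 ± 0.17 (adjusted p = 0.00306). HNRNPA2B1 fell by 1.47 ± 0.09 (adjusted p = 0.00132) and HNRNPA3 by 1.18 ± 0.14 (adjusted p = 0.00268). By list, 7 of 8 immediate early and short-lived transcripts that held members and were tested passed as higher, and 0 as lower, as did 10 and 0 of the 21 on the whole list. Of the hnRNP proteins that held members, 3 of 15 passed as higher and 8 as lower, and of the ribosomal proteins 0 and 11 of 36. Of the p53 targets that held members, 6 of 10 passed as higher and 0 as lower, of the NRF2 targets 5 and 2 of 12, and of the core spliceosome factors 4 and 2 of 15. Of the SR factors that held members 1 of 6 passed as higher, of the cleavage and polyadenylation factors 1 of 4, and 0 as lower in both. Of the RNA polymerase II and elongation genes that held members 6 of 9 passed as higher and 2 as lower, and of the stress response genes 1 and 1 of 3. The 3 snoRNA host genes with members had a median log2 fold change of -0.03 and did not pass. Over the whole lists, 10 p53 targets of 28 passed as higher and 1 as lower, 5 and 12 of 25 hnRNP proteins, 0 and 24 of 82 ribosomal proteins and 10 and 8 of 27 NRF2 targets. In the same order of higher and lower, 10 and 8 of 38 RNA polymerase II and elongation genes passed, 4 and 8 of 20 stress response genes, 1 and 3 of 16 SR factors, 13 and 8 of 47 core spliceosome factors, 4 and 0 of 20 cleavage and polyadenylation factors and 4 and 3 of 25 snoRNA host genes. All values are limma voom with adjustment over all genes tested.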

How the data were processed

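Poly(A)+ RNA of A549 cells was sequenced by the authors in reads of 75 nt and aligned to GRCh37 with STAR (2.7.3a in the submitters' notes; the paper's methods name another version). They made intron tables with the IPSA pipeline, filtering split reads by offset entropy, annotation and splice site bases. The deposited counts are raw counts of split and unspliced reads held in a text field, with no normalization. The lowest listed value was 3 split reads, and 11 reads at the better covered site, in every library. Because the unit was recorded as other, the tests named for counts were replaced by limma voom (limma 3.58.1, R 4.3.3) with TMM factors (trims of 30% and 5%) written for this work, checked on simulated data. Introns were matched to GENCODE release 44 on GRCh37, where 87.1% match exactly. Libraries were grouped by the treatment label. The members, gene lists and named members (the highest by split reads at 25 μg/mL DRB in each class, at most 1 per gene, the 2 highest in each list, and those past the threshold) were chosen with earlier results of these data known. Marker genes, motif searches and single genes such as ADAMTSL4-AS2 and SMURF2 were described after their values were seen. Alternatives changed the read minimum, depth scaling, annotation match, normalization, filter, samples and replicate block. The exon rows of the same files were not used. A few members and sequences are withheld and not reported here.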

Additional observations from a re-analysis of the deposited data

How the results depend on the processing

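The number of members was 1993 and 738 with at least 5 and at least 10 reads in both 25 μg/mL DRB libraries, 2236 with a minimum scaled to depth, and between 3490 and 7162 when a single DRB or DMSO library was left out. Chosen after seeing the data, it was 2114 with a DMSO-covered annotated site, 634 with at least 11 reads, 3140 without shared junction sequences and 3220 for GT-AG introns. The median use of 1-site members was 9.66% at sites of at least 20 reads. Of members tested at 10 μg/mL DRB against α-amanitin, 5 of 48 passed as higher with total reads (all introns 7.94% higher), 11 of 412 without the read filter (4.41%), 1 of 8 with at least 20 reads (8.32%), 11 of 48 with all 10 libraries in the fit (5.68%), 3 of 48 with limma trend (1.9%), and 1 of 44 against 2 μg/mL alone (1.67%; 4093 introns in either direction). With limma trend SLC7A5 and MATR3 had adjusted p of 0.0938 and 0.0925, so neither was among the 3. Against 2 μg/mL alone they had 0.169 and 0.373 (limma voom), so neither was the 1 that passed. The fit of all 10 libraries takes in the DMSO and 25 μg/mL DRB values that chose the members, where both DMSO values are 0 by the rule. Leaving out a library gave 0 to 1 members, 2157 to 6238 introns, 748 to 2283 genes and 174 to 482 genes that hold members. The lone library left is then assumed to vary like the other groups.

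The labels number the libraries of each condition 1 and 2 but tie nothing to a number. Deviations of same-numbered libraries correlated at 0.136 to 0.282 over introns and 0.267 to 0.436 over genes. With the replicate block 2 members, 6838 introns, 3610 genes and 692 genes that hold members passed, but SLC7A5 had an adjusted p of 0.0700 and MATR3 of 0.0717 (limma voom; over all alternatives 0.0195 to 0.199 and 0.00891 to 0.373). The cause of these changes was not tested beyond the fewer introns or libraries in each fit. Depth limits the members, at a median of 6 and 7 reads.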

Other observations

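Of the members, 252 (7.43%) had the same 40 nt around their junction, 20 on each side, as another listed intron, so their reads cannot be told apart. RPS27A and the pseudogene RPS27AP16 had identical values, 49 and 107 reads at 25 μg/mL DRB. A further 27 members had CT-AC ends, the reverse complement of GT-AG, and 8 lay in bases not resolved in GRCh37.

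Beside the protein-coding genes, lncRNA genes that were not read in DMSO held clusters of members. LINC-PINT had 13 members with 191 and 149 reads at 25 μg/mL DRB, beside 232 and 229 reads on its annotated introns, against 0 and 0 in DMSO. IDI2-AS1 had 8 members with 99 and 91 reads, beside 44 and 49 on annotated introns, against 0 and 0 in DMSO. The protein-coding gene NAV3 had 12 members with 145 and 139 reads, beside 1374 and 1808 on annotated introns, against 0 and 9 in DMSO. These genes were chosen after their values were seen, and a gene unread in DMSO could hold no listed intron there.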
